A study of Mus musculus with 8 samples.

Results

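The genes described here are 10 subunits of the BAF chromatin remodeling complex that are exchanged, or may be exchanged, when neural progenitors become neurons. They were chosen by name from the 33971 genes of the count table, with earlier results of these data known. All 10 passed the filter on low counts that left 19367 genes. The set holds the 4 progenitor subunits *Actl6a*, *Phf10*, *Dpf2* and *Ss18*, the 4 neuronal subunits *Actl6b*, *Dpf1*, *Dpf3* and *Ss18l1*, and the 2 ATPases *Smarca4* and *Smarca2*. They were measured by poly-A selected bulk RNA sequencing of whole brains of WT mouse embryos at E14.5. The dams were WT as well and received either a choline-deficient diet (CDD, 4 brains) or a normal chow diet (ND, 4 brains). The series' design and the study's methods start the diet on the day of mating, whereas the study's note to its expression table for these brains places the start of CDD before mating. The number of dams and litters behind the 4 brains of each diet is not stated in the sources used here. The p-values rest on the spread between these brains, which may share a litter. If the brains of a diet share a litter, diet and litter cannot be told apart, and the 4 brains are not independent units.

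BAF complexes, the mammalian relatives of yeast SWI/SNF, use the energy of ATP to move nucleosomes and so open or close DNA to transcription factors. Many of their subunits come in families of paralogs, and in several of these families a complex takes a single paralog. Dividing neural progenitors use BAF53a (*Actl6a*), BAF45a and BAF45d (*Phf10* and *Dpf2*) and SS18, and these are replaced in postmitotic neurons by BAF53b (*Actl6b*), BAF45b and BAF45c (*Dpf1* and *Dpf3*) and CREST (*Ss18l1*). The exchange of BAF53 is known to depend on a pair of microRNAs, miR-9-3p and miR-124, which act on the 3′UTR of *Actl6a* and whose genes are repressed by REST in progenitors. BAF53a is also a subunit of the INO80 and TIP60 remodeling complexes.

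The sequence of miR-9-3p and the stretches of the members' 3′UTRs that match its seed are shown first, because this microRNA is known to act on *Actl6a*. The microRNA is given from RefSeq (GRCm38.p6) with its seed, bases 2 to 8, in capitals. The 2 sequences below it are 30-base stretches of 3′UTR from GENCODE M21 (GRCm38), with the 7 bases that match the whole seed in capitals.
mmu-miR-9-3p: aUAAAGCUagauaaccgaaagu
*Actl6a* 3′UTR: cgtcacctcaacgtctgtAGCTTTAgtaca
*Smarca2* 3′UTR: tcattgtcatctagaactAGCTTTAgggta
The *Actl6a* match lay at bases 38 to 44 of a 371-base 3′UTR, at chr3:32726640-32726646 on the plus strand, in the 1 annotated coding transcript. The *Smarca2* match lay at bases 132 to 138 of a 952-base 3′UTR, at chr19:26777502-26777508 on the plus strand, in 8 of 12 transcripts with a 3′UTR. The longest 3′UTR of each of the other 8 members held no such 7-base match. The match, AGCTTTA, was found in 2370 of 21010 mouse genes with a 3′UTR (11.3%), so a match by itself is common, and it is a description of the letters and not a measured site. The mature microRNAs are too short for a poly-A library and were not measured.

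The promoters of *Actl6a* and *Actl6b* are given from RefSeq (GRCm38.p6), because these paralogs are the exchange that the microRNAs act on. Each window has 300 bases, from 250 before to 50 after the annotated start. The coordinates of these windows and of the seed matches above do not line up with the gene positions given below. Those are the positions the authors list, on a build that is not named, so the 2 sets should not be compared. Capitals mark the CCAAT box (CCAAT) and the GC box (GGGCGG), searched on both strands.
*Actl6a* promoter, chr3:32708296-32708595, plus strand: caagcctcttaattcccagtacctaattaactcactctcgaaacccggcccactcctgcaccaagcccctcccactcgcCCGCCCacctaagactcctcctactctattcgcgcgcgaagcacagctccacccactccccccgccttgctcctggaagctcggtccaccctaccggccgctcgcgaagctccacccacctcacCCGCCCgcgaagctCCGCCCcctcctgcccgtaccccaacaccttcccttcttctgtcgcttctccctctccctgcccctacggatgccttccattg
*Actl6b* promoter, chr5:137553296-137553595, plus strand: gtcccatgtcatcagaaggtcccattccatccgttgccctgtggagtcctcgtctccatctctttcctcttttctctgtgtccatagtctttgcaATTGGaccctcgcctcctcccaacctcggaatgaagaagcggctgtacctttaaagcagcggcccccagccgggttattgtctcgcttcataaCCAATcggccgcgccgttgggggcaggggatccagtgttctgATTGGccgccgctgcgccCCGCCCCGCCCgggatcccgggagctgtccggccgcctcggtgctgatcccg
The *Actl6a* window held 3 GC boxes and 0 CCAAT boxes. The *Actl6b* window held 3 CCAAT boxes and 2 GC boxes, which overlap each other. A CCAAT box occurred in 37.4% and a GC box in 35.7% of 32851 promoters of this length, and no factor's binding was measured in these brains.

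Libraries held 31770217 to 43121170 counts, and the lowest count of a member in any brain was 981, for *Dpf3*. CPM values below are counts relative to the size of the library, after scaling by TMM, the trimmed mean of M-values. Fold changes of CDD over ND are on the log2 scale with their standard error (SE), and adjusted p-values are from edgeR's quasi-likelihood test over all 19367 genes, with 0.05 as the threshold. Some libraries stood apart in the markers of other tissues. CDD replicate 2 had a summed level of 75.8 CPM for 7 Hox genes of caudal hindbrain and spinal cord, against 0 to 0.290 CPM in the other 7 brains. ND replicate 3 had the highest summed level of 8 erythroid markers (2979 CPM, against 758 to 1612 CPM in the others), and CDD replicate 1 had the highest summed level of 6 choroid plexus markers (506 CPM, against 189 to 330 CPM). Each member that passed the test is therefore given with and without CDD replicate 2, ND replicate 3 and CDD replicate 1.

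Among the 10 members, 3 were higher and 2 were lower in CDD. *Actl6a*, *Ss18* and the ATPase *Smarca4* rose, by 10.3% to 19.6%, and *Actl6b* and the ATPase *Smarca2* fell, by 11.1% and 13.4%. Over all genes tested 8.83% passed the same threshold, 4.24% with a higher and 4.59% with a lower level in CDD. Of the 4 progenitor subunits 2 were higher and 0 lower (median log2 fold change 0.09), and of the 4 neuronal subunits 0 were higher and 1 lower (median -0.08), beside a median of -0.0038 over all genes tested. The members that moved were those of BAF53, of SS18 on the progenitor side and of the ATPases, whereas 0 of the 4 BAF45 genes passed the test. These counts were the same at an unadjusted p under 0.05 and with DESeq2. Of the 19367 genes tested, 4627 had an unadjusted p under 0.05 in edgeR, 2280 of them higher in CDD. DESeq2 called 2151 genes, 1105 higher and 1046 lower. These numbers are the background for counts of the same kind in the lists below. The members and lists were chosen with earlier results of these data known, so counts set beside these shares are a description and no test. In bulk RNA of a whole brain, fewer cells of a type and less RNA per cell cannot be told apart.

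**Figure D1:**
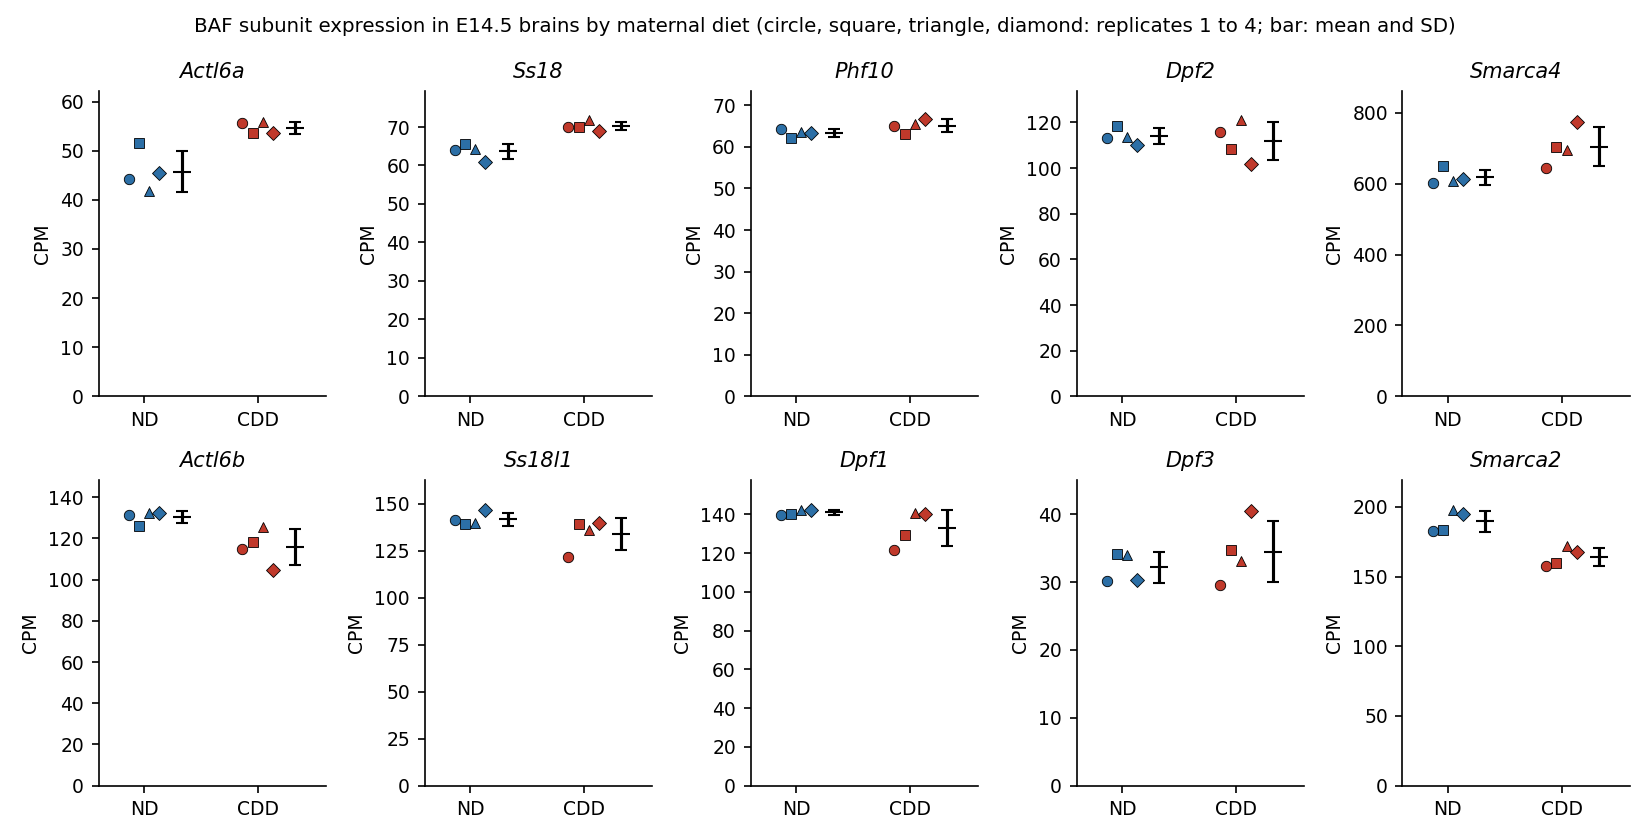
Expression of the 10 members in each brain, as CPM on a linear axis from 0, with progenitor subunits and *Smarca4* above and neuronal subunits and *Smarca2* below. Each marker is 1 brain (circle, square, triangle and diamond for replicates 1 to 4, ND blue and CDD red) and the bars give mean and SD of 4 brains. The diets do not overlap for *Actl6a*, *Ss18*, *Actl6b* and *Smarca2*, and they overlap for the other 6 genes.

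BAF53a, encoded by *Actl6a* (ENSMUSG00000027671, chr3:32760447-32781122 as the authors list it, plus strand), is an actin-related protein needed for progenitors to keep dividing. Its level was 55.6, 53.6, 55.8 and 53.5 CPM in CDD replicates 1 to 4. In ND replicates 1 to 4 it was 44.1, 51.6, 41.7 and 45.4 CPM. The diets did not overlap, and the CDD brains lay close together while ND replicate 2 stood nearer to them than the other ND brains. The mean was 54.6 ± 1.24 CPM in CDD and 45.7 ± 4.20 CPM in ND (SD, n = 4 per diet), a log2 fold change of 0.26 (SE 0.058, adjusted p = 0.0110, edgeR). The call held in 6 of 8 fits with 1 brain left out. It was lost without ND replicate 3 (log2 fold change 0.22, adjusted p = 0.0654, edgeR) and without ND replicate 1 (0.24, adjusted p = 0.0508), and held without CDD replicate 2 (0.27, adjusted p = 0.0192) and without CDD replicate 1 (0.25, adjusted p = 0.0312).

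BAF53b, encoded by *Actl6b* (ENSMUSG00000029712, chr5:137551779-137567844, plus strand), is the neuronal counterpart, found almost only in postmitotic neurons, where it is needed for dendrites to grow. It was measured at 115, 119, 126 and 105 CPM in CDD replicates 1 to 4. In ND replicates 1 to 4 its level was 131, 126, 133 and 132 CPM. Every CDD brain lay below every ND brain, but CDD replicate 3 (125.8 CPM) and ND replicate 2 (126.04 CPM) nearly touched, and CDD replicate 4 was the lowest. Means were 116 ± 8.70 CPM in CDD and 130.5 ± 3.05 CPM in ND (SD, n = 4 per diet), with a log2 fold change of -0.17 (SE 0.048, adjusted p = 0.0341, edgeR). This call held in 4 of 8 fits with 1 brain left out. It held without CDD replicate 2 (-0.18, adjusted p = 0.0455, edgeR), and was lost without CDD replicate 1 (-0.16, adjusted p = 0.0752), ND replicate 1 (-0.17, adjusted p = 0.105), ND replicate 3 (-0.16, adjusted p = 0.128) or ND replicate 4 (-0.16, adjusted p = 0.113).

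*Ss18* (ENSMUSG00000037013) encodes the progenitor member of a pair of coactivator subunits without DNA binding of their own. Its CPM was 70.1, 69.9, 71.7 and 69.0 in CDD replicates 1 to 4 and 64.1, 65.5, 64.2 and 60.9 in ND replicates 1 to 4. The diets did not overlap, and in both of them the brains lay close to each other. With 70.2 ± 1.11 CPM in CDD and 63.7 ± 1.98 CPM in ND (SD, n = 4 per diet), the log2 fold change was 0.14 (SE 0.043, adjusted p = 0.0458, edgeR). The change was small and near the threshold: the call held in 1 of 8 fits with 1 brain left out, the one without CDD replicate 4 (0.15, adjusted p = 0.0347, edgeR). Without CDD replicate 1, CDD replicate 2 or ND replicate 3 its log2 fold change was 0.15, 0.14 and 0.15 (adjusted p = 0.0685, 0.0780 and 0.129, edgeR), and in the fits that lost the call the value was between 0.12 and 0.16.

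*Ss18l1* (ENSMUSG00000039086, chr2:179684302-179711994, plus strand) encodes CREST, the neuronal counterpart of SS18, known for its part in calcium-dependent transcription and dendrite growth. Levels were 122, 139, 136 and 139.7 CPM in CDD replicates 1 to 4, and 141, 139, 140.0 and 147 CPM in ND replicates 1 to 4. CDD replicate 1 was the lowest, and the other CDD brains lay within or just below the range of ND. The log2 fold change was -0.08 (95% confidence interval -0.18 to 0.02, adjusted p = 0.300, edgeR), so no difference was called.

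The BAF45 family supplies a subunit with PHD fingers, which read modified histone tails. The progenitor subunit *Phf10* (BAF45a, ENSMUSG00000023883, chr17:15165271-15181535, minus strand) ranged from 63.0 to 66.6 CPM in CDD and from 62.2 to 64.3 CPM in ND, with a log2 fold change of 0.04 (95% confidence interval -0.05 to 0.13, adjusted p = 0.634, edgeR). *Dpf2* (BAF45d, ENSMUSG00000024826, chr19:5946544-5963038, minus strand) ranged from 102 to 121 CPM in CDD and from 110 to 119 CPM in ND (log2 fold change -0.03, interval -0.13 to 0.08, adjusted p = 0.801, edgeR). The ranges of both genes overlapped between the diets, and that of *Dpf2* in CDD held the whole ND range. *Dpf1* (BAF45b, ENSMUSG00000030584, chr7:29003376-29017668, plus strand) was between 122 and 141 CPM in CDD and between 139.6 and 142 CPM in ND (-0.09, interval -0.18 to 0.0096, adjusted p = 0.264, edgeR). *Dpf3* (BAF45c, ENSMUSG00000021221, chr12:83260519-83534490, minus strand) was between 29.6 and 40.4 CPM in CDD and between 30.1 and 34.2 CPM in ND (0.10, interval -0.07 to 0.27, adjusted p = 0.488, edgeR). The neuronal genes of this family thus had estimates of opposite sign, and the interval of *Dpf3* was the widest of the 10 members.

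The ATPase is the motor of the complex, and a complex holds either BRG1 (*Smarca4*) or BRM (*Smarca2*). BRG1 is the one needed in neural progenitors, and BRM becomes more common as cells differentiate. *Smarca4* (ENSMUSG00000032187, chr9:21527465-21615526, plus strand) was at 644, 703, 695 and 775 CPM in CDD replicates 1 to 4 and at 601, 649.9, 606 and 613 CPM in ND replicates 1 to 4. CDD replicate 1 lay within the ND range, below ND replicate 2, and CDD replicate 4 was the highest. Its mean was 704 ± 54.1 CPM in CDD and 617 ± 22.2 CPM in ND (SD, n = 4 per diet), a log2 fold change of 0.19 (SE 0.056, adjusted p = 0.0403, edgeR). The call held in 2 of 8 fits with 1 brain left out. Its log2 fold change was 0.23 without CDD replicate 1, 0.19 without CDD replicate 2, 0.14 without CDD replicate 4 and 0.18 without ND replicate 3 (adjusted p = 0.0212, 0.0701, 0.0518 and 0.169, edgeR).

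*Smarca2* (ENSMUSG00000024921, chr19:26582450-26755722, plus strand) moved the other way. It was at 158, 160.0, 172 and 168 CPM in CDD replicates 1 to 4, and at 183, 184, 198 and 195 CPM in ND replicates 1 to 4. Every CDD brain was below every ND brain, with a gap wider than that of *Actl6b*. The mean was 164 ± 6.59 CPM in CDD and 189.8 ± 7.58 CPM in ND (SD, n = 4 per diet), a log2 fold change of -0.21 (SE 0.044, adjusted p = 0.00777, edgeR), the smallest p-value of the members. The call held in 7 of 8 fits with 1 brain left out. It was lost without ND replicate 3 (-0.19, adjusted p = 0.0594, edgeR) and held without CDD replicate 2 (-0.19, adjusted p = 0.0274) and without CDD replicate 1 (-0.18, adjusted p = 0.0275).

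The count of members without overlap between the diets was 4 of 10, 2 with CDD higher and 2 with CDD lower, where 15.0% of all genes tested did not overlap, 7.65% with CDD higher and 7.39% with CDD lower. Of the 10 members, 0 passed the threshold in all 8 fits with 1 brain left out, as 2.20% of all genes did. In the edgeR fit without ND replicate 3, 0 members were called, with 471 genes called in all. In that fit 5 members had an unadjusted p-value under 0.05, as did 3470 genes in all. The members' estimates kept their sign in every such fit except that of *Dpf2*, which was 0.014 without CDD replicate 4. The spread was larger in CDD than in ND for 7 of 10 members, and for 68.2% of all genes tested.

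**Figure D2:**
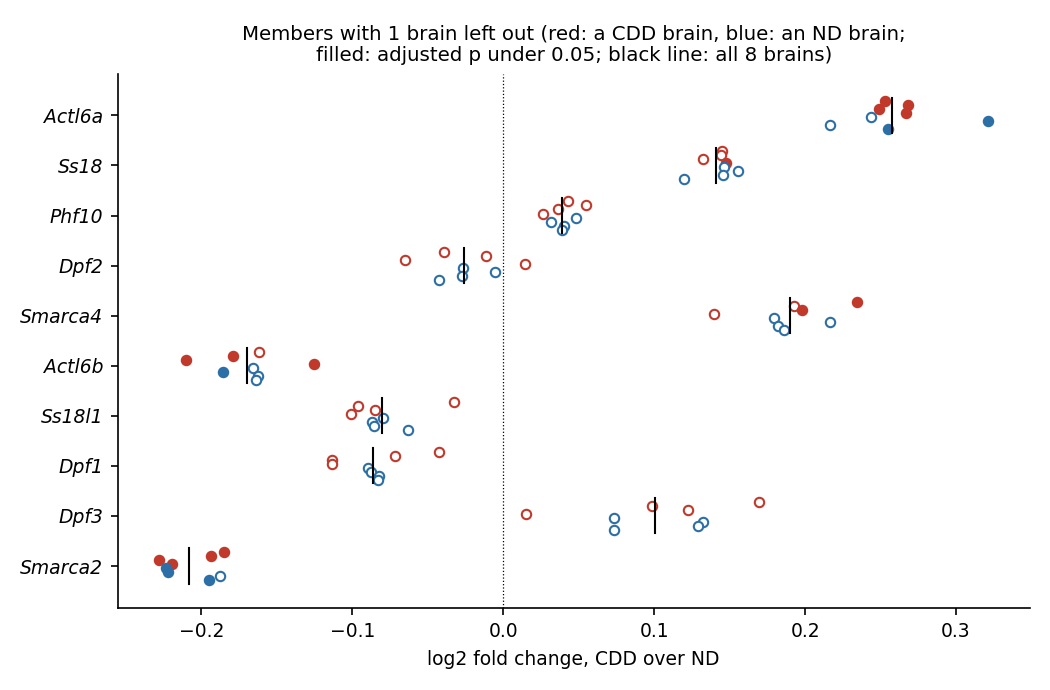
Log2 fold change of CDD over ND for each member with 1 brain left out at a time. Each circle is a fit without 1 CDD brain (red) or 1 ND brain (blue), it is filled where the adjusted p of edgeR is under 0.05, and the black line is the value with all 8 brains. *Smarca2* keeps 7 filled circles and *Actl6a* 6, while *Ss18* keeps 1.

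Since paralogs such as those of BAF53 are alternatives for a place in the complex, a ratio per family was formed from FPKM, which corrects counts for gene length. The BAF45 ratio includes *Phf10*, which marks the PBAF form of the complex, so it is not strictly a choice for a single place. A ratio within a brain does not depend on how libraries are scaled. The ratios combine members already described, so they are given with no test. The ratio of *Actl6b* to *Actl6a* was 1.88, 2.01, 2.05 and 1.78 in CDD replicates 1 to 4 and 2.71, 2.23, 2.89 and 2.65 in ND replicates 1 to 4. Every CDD brain was above every ND brain for *Actl6a* and below for *Actl6b*, so a separation of their ratio was fixed and is no further evidence. The means of the ratio were 1.93 ± 0.123 in CDD and 2.62 ± 0.283 in ND (SD, n = 4 per diet). On the log2 scale the difference was -0.43, and it lay between -0.51 and -0.38 with any brain left out. The neuronal gene supplied 65.9% ± 1.45 of BAF53 FPKM in CDD and 72.2% ± 2.28 in ND, shares that depend on the listed gene lengths.

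The ratio of *Smarca2* to *Smarca4* was 0.111, 0.103, 0.112 and 0.0983 in CDD replicates 1 to 4 and 0.138, 0.128, 0.148 and 0.144 in ND replicates 1 to 4. Here as well all CDD brains lay below all ND brains, with a log2 difference of -0.40 (between -0.44 and -0.36 with any brain left out). For *Ss18l1* over *Ss18* the mean was 4.49 ± 0.302 in CDD and 5.23 ± 0.294 in ND (SD, n = 4 per diet), again without overlap and with a log2 difference of -0.22 (between -0.25 and -0.18 with any brain left out). The BAF45 ratio, *Dpf1* plus *Dpf3* over *Phf10* plus *Dpf2*, was 1.08 ± 0.108 in CDD and 1.11 ± 0.0230 in ND, with a log2 difference of -0.05. It overlapped between the diets, and its difference was 0.01 without CDD replicate 1.

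**Figure D3:**
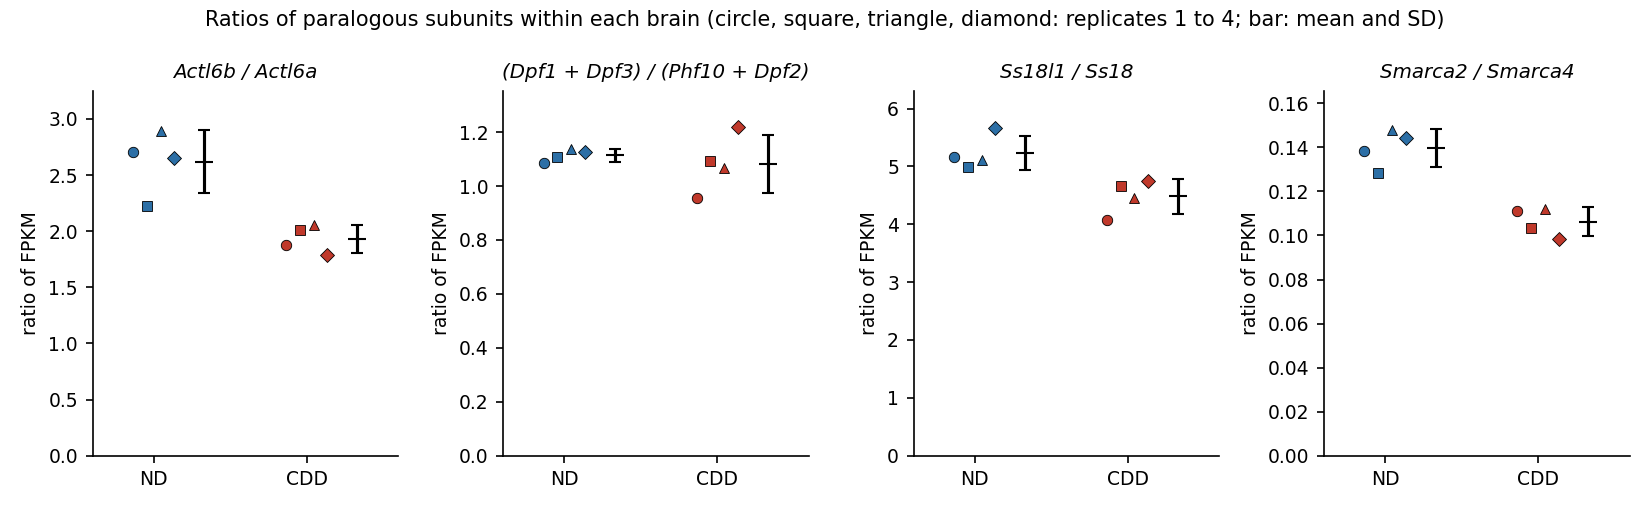
Ratio of FPKM between paralogs in each brain, on linear axes from 0, for BAF53, BAF45, the SS18 family and the ATPases. Each marker is 1 brain (circle, square, triangle and diamond for replicates 1 to 4, ND blue and CDD red), and bars give mean and SD. The 4 CDD brains lie below the 4 ND brains in all panels but the BAF45 panel. In the BAF53 panel this follows from the separation of both genes.

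Compared per gene length over all 8 brains, *Smarca4* had the highest level (mean FPKM 101.6, range 92.3 to 120). *Ss18l1* (31.6), *Actl6b* (28.7) and *Dpf1* (25.4) followed, with ranges that overlapped from each gene to the next. *Dpf2* (17.3) stood between these and *Phf10* (13.0), *Actl6a* (12.9) and *Smarca2* (12.3), whose ranges overlapped, and *Dpf3* (7.85) and *Ss18* (6.54) were the lowest and overlapped too. The order rests on the length the authors list for each gene, which is longer than the longest coding transcript of GENCODE M21 for every member but *Ss18l1*. With that transcript in its place, an alternative chosen after seeing the data, *Smarca4* was again the highest (103) and *Actl6b* (77.0) and *Dpf1* (59.0) came next, while *Phf10* was at 38.4, above *Ss18l1* at 31.6. The ratio of *Actl6b* to *Actl6a* and the share of *Actl6b* in BAF53 FPKM therefore have no fixed absolute value. Only the log2 difference of the ratio between the diets is free of the length.

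Of 20 other BAF subunits, the core, the ARID family and the accessory subunits, 3 were higher and 0 lower in CDD by edgeR. Over all genes tested 4.24% were higher and 4.59% lower at the same threshold. At an unadjusted p under 0.05 the subunits gave 4 and 2, where 4627 of 19367 genes passed, and with DESeq2 3 and 0. Their median log2 fold change was 0.02, with 14 of 20 above 0. *Smarce1* (BAF57, ENSMUSG00000037935) was at 256, 255, 260.1 and 263 CPM in CDD replicates 1 to 4 and at 234, 232, 225 and 232 CPM in ND replicates 1 to 4, without overlap (log2 fold change 0.16, adjusted p = 0.0183, edgeR). *Arid2* (ENSMUSG00000033237), which marks the PBAF form of the complex together with *Phf10*, rose without overlap between the diets (log2 fold change 0.20, adjusted p = 0.0142, edgeR). *Smarcc1* (BAF155, ENSMUSG00000032481), a scaffold that is more abundant in progenitors, rose by a like amount (0.20, adjusted p = 0.0378, edgeR), but its diets overlapped. These calls held in 5, 6 and 2 of 8 fits with 1 brain left out. All 3 were lost without ND replicate 1 and without ND replicate 3, and those of *Smarce1* and *Smarcc1* also without ND replicate 4. *Smarcc1* further lost its call without CDD replicate 2, CDD replicate 4 or ND replicate 2. Its paralog *Smarcc2* (BAF170) was at 618 ± 23.8 CPM in CDD and 612 ± 15.5 CPM in ND (log2 fold change 0.01, adjusted p = 0.895, edgeR), and was picked out after its value was seen.

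**Figure D4:**
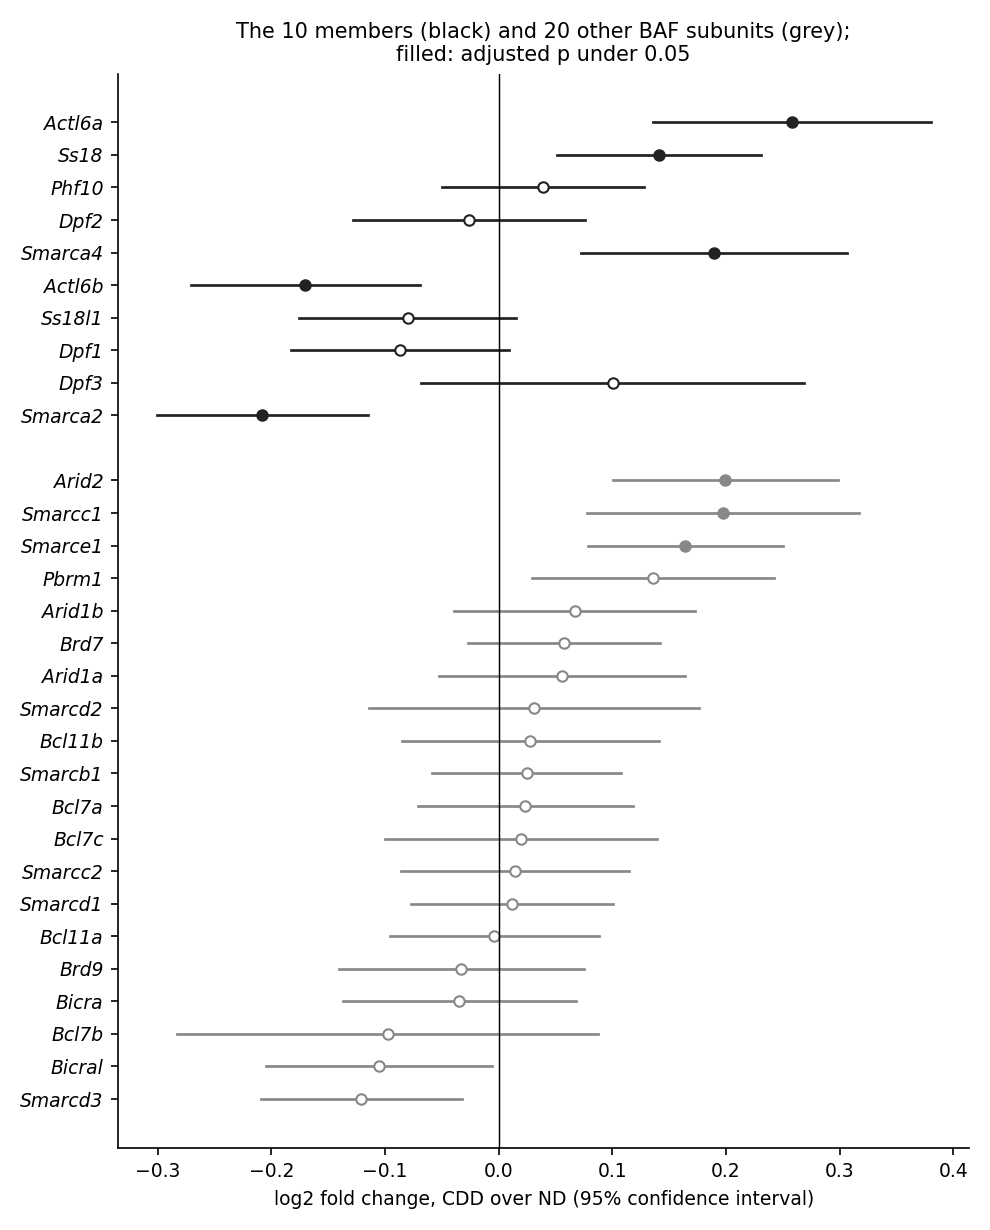
Log2 fold change of CDD over ND with its 95% confidence interval for the 10 members (black) and 20 other BAF subunits (grey, in order of their value). Filled circles passed an adjusted p under 0.05 in edgeR. *Actl6a*, *Ss18* and *Smarca4* lie right of 0 and *Actl6b* and *Smarca2* left of it, and the 3 filled subunits among the others all lie right of 0.

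INO80 and TIP60, which also hold BAF53a, were set beside it. Beside 8.83% of all genes tested that passed in edgeR, 1 of 20 subunits of these complexes was higher and 0 lower in CDD. At an unadjusted p under 0.05 the counts were 2 and 0, and with DESeq2 1 and 0. The median log2 fold change was 0.06. The one was *Mbtd1* (ENSMUSG00000059474), a histone reader of TIP60, with 167 ± 12.6 CPM in CDD and 144 ± 4.19 CPM in ND (SD, n = 4 per diet) and a log2 fold change of 0.22 (adjusted p = 0.0101, edgeR). Its call was lost without ND replicate 3.

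Regulators of the exchange were read from 8 genes. Beside 8.83% of all genes tested that passed in edgeR, 1 of these was higher and 0 lower in CDD. At an unadjusted p under 0.05 the counts were 4 and 0, and with DESeq2 3 and 0. The median log2 fold change was 0.10. The gene called was *Mir9-3hg* (ENSMUSG00000097023), a host transcript of the microRNA printed above. It was at 102, 89.3, 92.9 and 94.98 CPM in CDD replicates 1 to 4 and 76.4, 90.3, 78.8 and 80.5 CPM in ND replicates 1 to 4. CDD replicate 2 lay below ND replicate 2, so the diets overlapped, and the log2 fold change was 0.22 (SE 0.054, adjusted p = 0.0174, edgeR). The call held in 4 of 8 fits with 1 brain left out and was lost without CDD replicate 1, ND replicate 1, ND replicate 3 or ND replicate 4. The level of a host transcript is not that of the mature microRNA, which was not measured. The other genes did not pass: for *Rest*, the repressor, the log2 fold change was 0.09 (adjusted p = 0.366, edgeR), and its cofactors *Rcor2* and *Sin3a* had 0.15 and 0.17 (adjusted p = 0.0562 and 0.0572). The host transcripts *Mir124a-1hg* and *Mir124-2hg* of miR-124 had -0.11 and 0.11 (adjusted p = 0.786 and 0.0994, edgeR), the first with an SD of 57.1 CPM in CDD against 6.34 CPM in ND.

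Markers of the cells in which each side of the exchange is known were read in the same brains. Of all genes tested, 4.24% were higher and 4.59% lower in CDD by edgeR. Of 10 neural progenitor markers, 5 were higher and 0 lower in CDD (edgeR; 8 and 0 at an unadjusted p under 0.05, and 5 and 0 with DESeq2), among them *Nes* (0.47, adjusted p = 0.00344, edgeR), *Top2a* (0.44, adjusted p = 0.00287) and *Pax6* (0.25, adjusted p = 0.00642). Their summed level was 2075 to 2402 CPM in CDD and 1840 to 1960 CPM in ND, without overlap. Of 6 intermediate progenitor markers 3 were higher and 0 lower (5 and 0 at an unadjusted p under 0.05, and 4 and 0 with DESeq2), among them *Btg2* (0.35, adjusted p = 0.00322, edgeR) and *Neurog2* (0.32, adjusted p = 0.00475). Their sums, 486 to 550 CPM in CDD and 450 to 505 CPM in ND, overlapped. Of 12 postmitotic neuron markers 0 were higher and 2 lower (1 and 3 at an unadjusted p under 0.05, and 0 and 3 with DESeq2), *Snap25* (-0.23, adjusted p = 0.0246, edgeR) and *Gap43* (-0.18, adjusted p = 0.0484), and their sum was 7007 to 7831 CPM in CDD and 7191 to 7461 CPM in ND. Of the neural progenitor list, 9 of 10 log2 fold changes were above 0, with *Fabp7* at -0.04, and of the intermediate list 5 of 6, with *Insm1* at -0.08, both without a call. The summed neural progenitor markers were thus higher in CDD beside *Actl6a*, *Ss18* and *Smarca4*, while the summed neuron markers of CDD lay on both sides of those of ND. Within the progenitor sum, *Nes*, *Top2a*, *Vim* and *Mki67* had the largest rises. Their means were 260, 222, 489 and 226 CPM in ND and 361, 302, 565 and 301 CPM in CDD. *Fabp7* and *Slc1a3* were at 307 and 141 CPM in ND and at 298 and 144 CPM in CDD. The neuron sum is set mostly by *Tubb3*, *Dcx* and *Map2* (means of 1859, 1542 and 1327 CPM in ND). Their log2 fold changes were 0.02, 0.06 and 0.09, without a call, and of all 12 neuron markers 6 were above 0 and 6 below.

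Set against these sums, *Actl6a* and *Ss18* no longer separated the diets. Per 1000 CPM of neural progenitor markers, *Actl6a* was at 24.5 ± 1.94 CPM in CDD and 24.3 ± 1.59 CPM in ND (SD, n = 4 per diet), a log2 difference of 0.02. *Ss18* (31.5 ± 2.39 and 33.8 ± 0.813 CPM) and *Smarca4* (315 ± 18.7 and 328 ± 6.33 CPM) overlapped between the diets on this scale. Per 1000 CPM of postmitotic neuron markers, *Actl6b* was at 15.7 ± 1.77 CPM in CDD and 17.7 ± 0.142 CPM in ND, a log2 difference of -0.19, with 13.4 to 17.6 CPM against 17.5 to 17.8 CPM, so that CDD and ND now overlapped. *Smarca2* was at 22.1 ± 1.43 CPM in CDD and 25.8 ± 0.717 CPM in ND on that scale, a log2 difference of -0.22, and its diets stayed apart. These are descriptions with no test, and the part of the marker sums in the members' values was not tested.

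**Figure D5:**
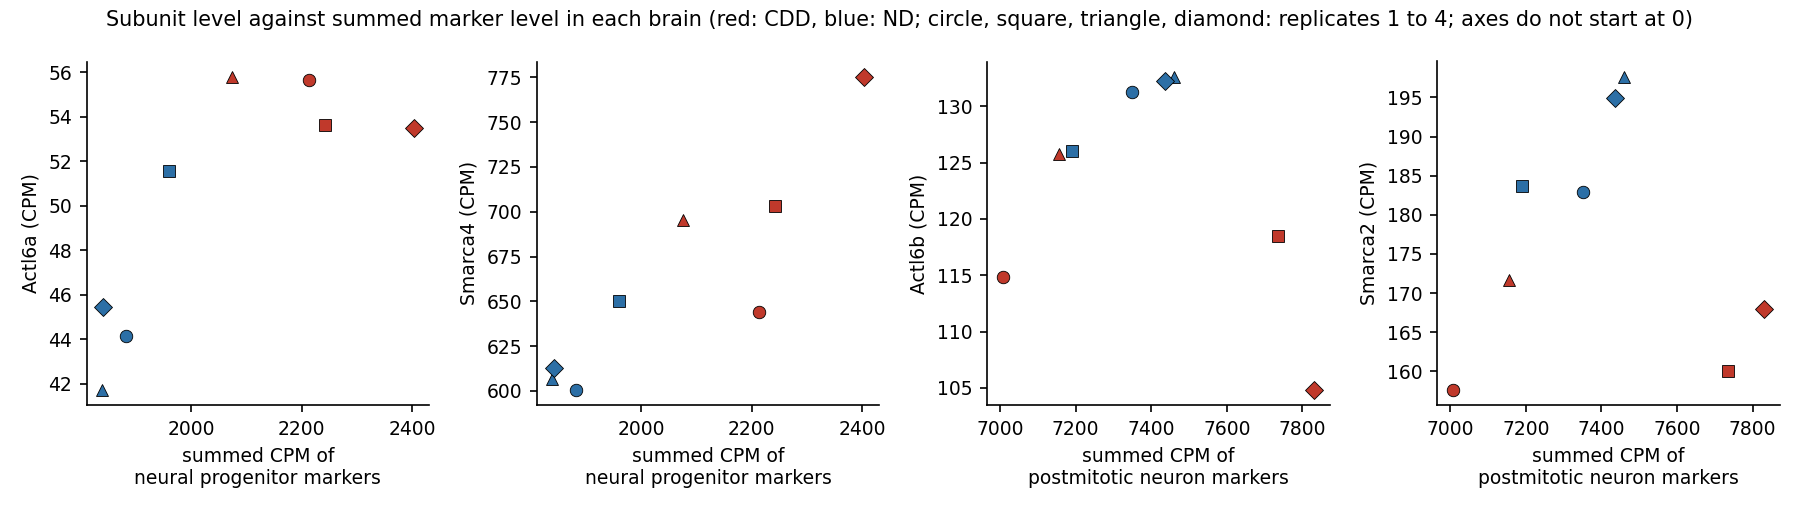
Level of 4 members in CPM against the summed CPM of neural progenitor markers (*Actl6a*, *Smarca4*) or postmitotic neuron markers (*Actl6b*, *Smarca2*), 1 marker per brain, CDD red and ND blue, on axes that do not start at 0. The 4 CDD brains lie right of the ND brains for the progenitor sum, and the neuron sum of CDD spans 7007 to 7831 CPM around that of ND while *Smarca2* is lower in each CDD brain.

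Markers of other cells moved in either direction, where 8.83% of all genes tested passed in edgeR. Of 8 erythroid markers 2 were higher in CDD, the embryonic globins *Hbb-y* and *Hba-x* (2.24 and 1.67, adjusted p = 0.00651 and 0.0208, edgeR). The other erythroid markers had no call, 5 of 8 in the list were below 0 and the median over the list was -0.56 (log2), and its sums were 758 to 1415 CPM in CDD and 822 to 2979 CPM in ND. *C1qc* of 8 microglia markers (-0.40, adjusted p = 0.0173, edgeR) and *Cldn5* of 6 endothelial markers (-0.28, adjusted p = 0.00768) were lower. Of 6 meningeal fibroblast markers *Lum* was higher (0.29, adjusted p = 0.0474, edgeR) and *Col1a1* and *Col1a2* were lower (-0.23 for both, adjusted p = 0.0126 and 0.0453). Of 5 oligodendrocyte precursor markers *Olig1* (-0.50, adjusted p = 0.00287, edgeR) and *Pdgfra* (-0.31, adjusted p = 0.00690) were lower, and their sum was 91.9 to 106 CPM in CDD and 114 to 132 CPM in ND, without overlap. Of 6 choroid plexus markers 0 passed (edgeR; 3 at an unadjusted p under 0.05, and 2 with DESeq2), with *Clic6* the nearest (0.43, adjusted p = 0.0562). The sums of microglia markers (55.0 to 59.7 CPM in CDD, 60.5 to 69.6 CPM in ND) and of endothelial markers (227 to 239.5 and 242 to 251 CPM) did not overlap between the diets either. Their part in the members' values was not tested.

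The genes whose log2 CPM was most alike to that of *Actl6a* over the 8 brains, among 13701 protein-coding genes, were *Nup188* (Pearson r 0.989), *Spc24* (0.985) and *Dipk1c* (0.984). Those most like *Actl6b* were *Rac3* (0.995), *Ankrd34a* (0.990) and *Hspbp1* (0.988). These are the highest values of a long ranking over few points that share 2 diets and their libraries, and they are given as a description.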

How the data were processed

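Poly-A selected RNA of 8 whole brains was sequenced in bulk. Per gene, the authors deposited the raw count in each brain, without normalization, and FPKM, which is that count after division by a library size factor and by the listed gene length. Their own fold changes, p-values, normalized signal and subset tables were not used. Columns of per-sample values that could not be mapped to a sample numbered 0. The submitters' processing notes name HISAT2 2.0.5, featureCounts 1.5.0-p3 and DESeq2 1.20.0. The genome build, annotation and strand setting are not given in the sources used here, so gene positions are those the authors list, and reads of overlapping genes on opposite strands may not be separable. These positions do not match the GRCm38 coordinates of the promoters and seed matches.

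Counts were filtered (filterByExpr), scaled by TMM and tested with edgeR 4.0.16 (robust quasi-likelihood, diet as the single term, Benjamini-Hochberg over 19367 genes, threshold 0.05). The SE is the log2 fold change divided by the square root of F. Other tools were limma 3.58.1 and DESeq2 1.42.0 under R 4.3.3, and NumPy 2.4.6, matplotlib 3.10.9 and pandas 2.3.3 under Python 3.11.15. The common biological coefficient of variation was 0.0814. No pair of brains agreed within sampling noise (lowest chi-square per degree of freedom 3.76). Tested on counts simulated from these brains (CDD over ND, 19124 genes), edgeR recovered 12 of 70 log2 changes of size 0.2, 49 of 68 of size 0.5 and 46 of 57 of size 1, and it called 14 of 18929 unchanged genes. The simulation gave both diets the same dispersion and changed few genes, whereas 1710 genes were called in these brains. An adjusted threshold is stricter where fewer genes change, so these recovery counts do not carry over to the members.

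The members and gene lists were chosen with earlier results of these data known. All members were named, as were up to 3 genes past the threshold per direction of each other list (or the one with the smallest p-value), and the 3 genes most like *Actl6a* and *Actl6b* with a mean of at least 1 CPM. A gene named by this rule is left out of the text. *Mir9-1hg* and *Hoxc8* were not found in the table. The alternatives were RLE and upper-quartile normalization, DESeq2, limma-voom, no filter, a minimum of 10 counts per brain, a replicate block, each brain left out, an adjusted p under 0.01, and limma on log2(FPKM + 1). For the promoters and microRNA, RefSeq tables of GRCm38.p6 were read, and 3′UTRs were taken from GENCODE M21.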

Additional observations from a re-analysis of the deposited data

Results flagged for a closer look

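In each group of 4 brains, the CPM of the members, their 4 ratios and the CPM of the 5 genes named from the other BAF, INO80 and TIP60 and regulator lists were checked for a brain far from the rest by Dixon's criterion. Of 38 groups 2 held such a brain, where chance gives about 1 in 20 (1.9 expected). *Arid2* was at 225.9 CPM in CDD replicate 4, with 199 to 203 CPM in the other CDD brains. *Smarcc1* was at 273 CPM in ND replicate 2, with 256 to 257 CPM in the other ND brains.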

How the results depend on the processing

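The test called 1710 genes, 5 members and 3 other BAF subunits. With limma on log2(FPKM + 1) these were 519, 0 and 1 (4344 genes, 5 members and 5 other subunits at an unadjusted p under 0.05), and at an adjusted p under 0.01 they were 477, 1 and 0. With 1 brain left out they ranged from 471 to 2495 genes, from 0 to 4 members and from 0 to 5 other subunits. Genes were fewest without ND replicate 1 (688), ND replicate 3 (471) or ND replicate 4 (615), where 1, 0 and 2 members and 0, 0 and 1 other subunits were called. Without CDD replicate 1, CDD replicate 2 or ND replicate 2, 3 members were called. Without CDD replicate 3, 5 other subunits were. The causes were not tested. Other settings gave 1629 (limma-voom) to 2374 genes (no filter, which tests more genes), 4 or 5 members and 3 other subunits, and DESeq2 called 2151 genes. *Ss18* lost its call with upper-quartile normalization, limma-voom and no filter (adjusted p = 0.0531, 0.0540 and 0.0701). *Dpf2* changed sign without CDD replicate 4, with a range of -0.065 to 0.014 over the fits with 1 brain left out. The log2 difference of the ratios lay between -0.51 and -0.38 (BAF53), -0.10 and 0.01 (BAF45), -0.25 and -0.18 (SS18 family) and -0.44 and -0.36 (ATPases) with 1 brain left out.

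With the replicate number as a block, 1812 genes, 4 members and 3 other subunits were called, and *Ss18* was lost (adjusted p = 0.0589). The deviations of same-numbered brains correlated by 0.105, -0.133, 0.117 and 0.232, so not every pair was over 0.1 and the numbers were not taken to pair the brains. Brains numbered 1, 3 and 4 correlated best with their own number and those numbered 2 did not, which is a hint from the data and not the design.

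The lowest count of a member in any brain was 981. The parts of depth and of the spread between brains in the intervals were not tested, and a missing call does not show that the diets were alike.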
